A study of Mus musculus with 22 samples.

Results

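The immediate early genes described here are Fos, Fosb, Jun, Junb, Jund, Egr1, Nr4a1, Ier2, Dusp1 and Arc, 10 of the 24353 gene symbols in each of 2 deposited tables, chosen by name. The tables list them in capitals, as FOS, FOSB, JUN, JUNB, JUND, EGR1, NR4A1, IER2, DUSP1 and ARC. All 10 passed the filter on low values in both tables, among 10780 genes in the CD45-negative table and 10340 in the CD45-positive table. Bulk RNA sequencing was done on EMT6 tumours, which grew from 200000 cells of this mouse mammary carcinoma line injected into both inguinal fat pads of wild type BALB/c mice aged 5 to 6 weeks. At the end of treatment the tumours were dissociated into single cells, and beads carrying an antibody against CD45, a surface protein of leukocytes, split each into a CD45-negative fraction, enriched for tumour cells, and a CD45-positive fraction, enriched for leukocytes. The groups received JQ1 with paclitaxel and anti-PD-L1 (the 3-drug group; 3 CD45-negative and 2 CD45-positive libraries), JQ1 with paclitaxel (3 and 2), JQ1 with anti-PD-L1 (2 and 2), JQ1 alone (2 and 2) or vehicle (2 and 2). JQ1 was given at 50 mg/kg by gavage each day, and paclitaxel and the anti-PD-L1 antibody were each injected at 10 mg/kg on 2 days a week. JQ1 displaces BET bromodomain proteins from acetylated chromatin, paclitaxel stabilises microtubules, and the antibody blocks PD-L1, which restrains T cells through their receptor PD-1. Paclitaxel and the antibody were given only together with JQ1. The JQ1 with anti-PD-L1, JQ1 and vehicle groups each carried 1 code with an R and an L tumour. The labels do not explain these codes, which were read here as a mouse with its right and left tumour, so p-values there rest on the spread between tumours that 1 animal may have carried, whereas the other groups carried a separate code per tumour.

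Immediate early genes are transcribed within minutes of a stimulus without new protein synthesis, through MAP kinases that act on SRF with its ternary complex factors and through CREB at cyclic AMP response elements. Fos and Jun proteins pair to form the transcription factor AP-1, Egr1 and Nr4a1 are a zinc finger and a nuclear receptor transcription factor, and Dusp1 is a phosphatase that switches MAP kinases off again. The same genes are known to be induced when solid tissue is taken apart into single cells. Every library here went through that step, so a level measured here combines the state in the tumour with whatever the preparation added, and undissociated tissue was not analysed here.

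The 250 bases upstream of the transcription start are shown for 4 of the genes that fell in the antibody comparison below, to let their response elements be compared. The capitals mark TGACG on either strand, the core of the cyclic AMP response element TGACGTCA, which is in capitals as a whole where it occurs; Jun holds neither. The sequences are RefSeq's on GRCm38.p6, each written 5′ to 3′ on the strand of the gene, whereas the expression values were made on mm9. The windows are chr12:85473640-85473889 on the plus strand for Fos, chr4:95052223-95052472 on the minus strand for Jun, chr8:84978749-84978998 on the minus strand for Junb and chr17:26508473-26508722 on the minus strand for Dusp1.
Fos: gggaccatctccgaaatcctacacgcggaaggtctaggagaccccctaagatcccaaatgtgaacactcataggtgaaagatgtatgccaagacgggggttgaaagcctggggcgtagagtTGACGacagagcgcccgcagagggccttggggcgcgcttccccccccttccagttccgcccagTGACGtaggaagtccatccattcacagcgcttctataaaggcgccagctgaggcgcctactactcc
Jun: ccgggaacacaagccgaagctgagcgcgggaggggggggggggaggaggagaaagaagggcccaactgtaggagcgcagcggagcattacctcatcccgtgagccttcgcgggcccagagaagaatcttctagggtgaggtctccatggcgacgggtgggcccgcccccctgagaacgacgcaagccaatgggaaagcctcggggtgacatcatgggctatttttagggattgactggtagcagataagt
Junb: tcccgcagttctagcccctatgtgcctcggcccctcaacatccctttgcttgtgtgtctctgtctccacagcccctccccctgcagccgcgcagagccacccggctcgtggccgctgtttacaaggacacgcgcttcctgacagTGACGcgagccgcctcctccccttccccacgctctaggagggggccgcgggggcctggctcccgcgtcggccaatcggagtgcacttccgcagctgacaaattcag
Dusp1: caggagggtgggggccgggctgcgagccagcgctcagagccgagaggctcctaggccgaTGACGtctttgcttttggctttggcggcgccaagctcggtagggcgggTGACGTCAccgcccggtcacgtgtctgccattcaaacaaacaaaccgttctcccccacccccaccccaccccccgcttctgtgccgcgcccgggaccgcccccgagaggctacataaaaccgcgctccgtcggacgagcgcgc
RefSeq promoter sequences matched 7 of the 10 genes (Fos, Fosb, Jun, Junb, Jund, Nr4a1 and Dusp1). TGACG lay on either strand in 5 of these 7 (Fos, Fosb, Junb, Nr4a1 and Dusp1), against 17.9% of 27025 mouse promoters of the same length, 1 per gene. The whole element TGACGTCA, whose letters contain TGACG, was found in 1 of the 7 (Dusp1), against 1.62% of all promoters. The AP-1 motif TGANTCA was in 0 of the 7, against 6.87%, and the CArG box bound by SRF was in 0 of the 7, against 1.40%. These matches describe letters in a window of this length on both strands, and neither a match nor its absence says that a factor binds or does not bind. Only exact matches within these 250 bases were counted, and sequence farther upstream was not searched.

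The values were FPKM, which carry no read totals, so absolute depth and counting error were unknown. Depth relative to the mean of a fraction ran from 0.547 to 1.79 in the CD45-negative and from 0.629 to 1.71 in the CD45-positive libraries, with both JQ1 CD45-negative libraries (0.554 and 0.653) below both vehicle libraries (1.79 and 1.13). The labelled fractions were checked by marker genes. Tumour by tumour, CD45-negative cells held 5.65% to 14.9% of the summed FPKM that 8 leukocyte genes had in CD45-positive cells. The 6 epithelial genes summed to 297 to 885 FPKM in CD45-negative and to 12.3 to 91.1 FPKM in CD45-positive libraries. In bulk RNA, fewer cells of a type and less RNA per cell cannot be told apart. A few libraries stood apart from their group in these genes. In the CD45-negative fraction, replicate 3 of JQ1 with paclitaxel was the lowest of its group for 8 of the 10 genes, all but Jund and Arc, and was the highest for Arc. In the CD45-positive fraction, replicate 1 of the 3-drug group was the lowest of all 10 libraries for 7 genes, while replicate 2 of that group was the highest for 5.

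These were abundant transcripts in the CD45-negative fraction. Together the 10 genes made up 0.487% to 2.05% of all FPKM in a library, the lowest in a 3-drug and the highest in a JQ1 library. By mean FPKM over the fraction, Junb held rank 42 among all genes, Fos rank 69, Egr1 rank 84 and Ier2 rank 100, and Arc, at rank 901, was the scarcest of the 10. Their summed FPKM was 1716 to 2075 in the 3-drug group, 2086 to 3027 with JQ1 and anti-PD-L1, 2211 to 4239 with JQ1 and paclitaxel, 4955 to 6094 with JQ1 alone and 3482 to 4537 with vehicle. In this sum the 3-drug libraries lay below all 9 others and the JQ1 libraries above all 10 others.

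**Figure D1:**
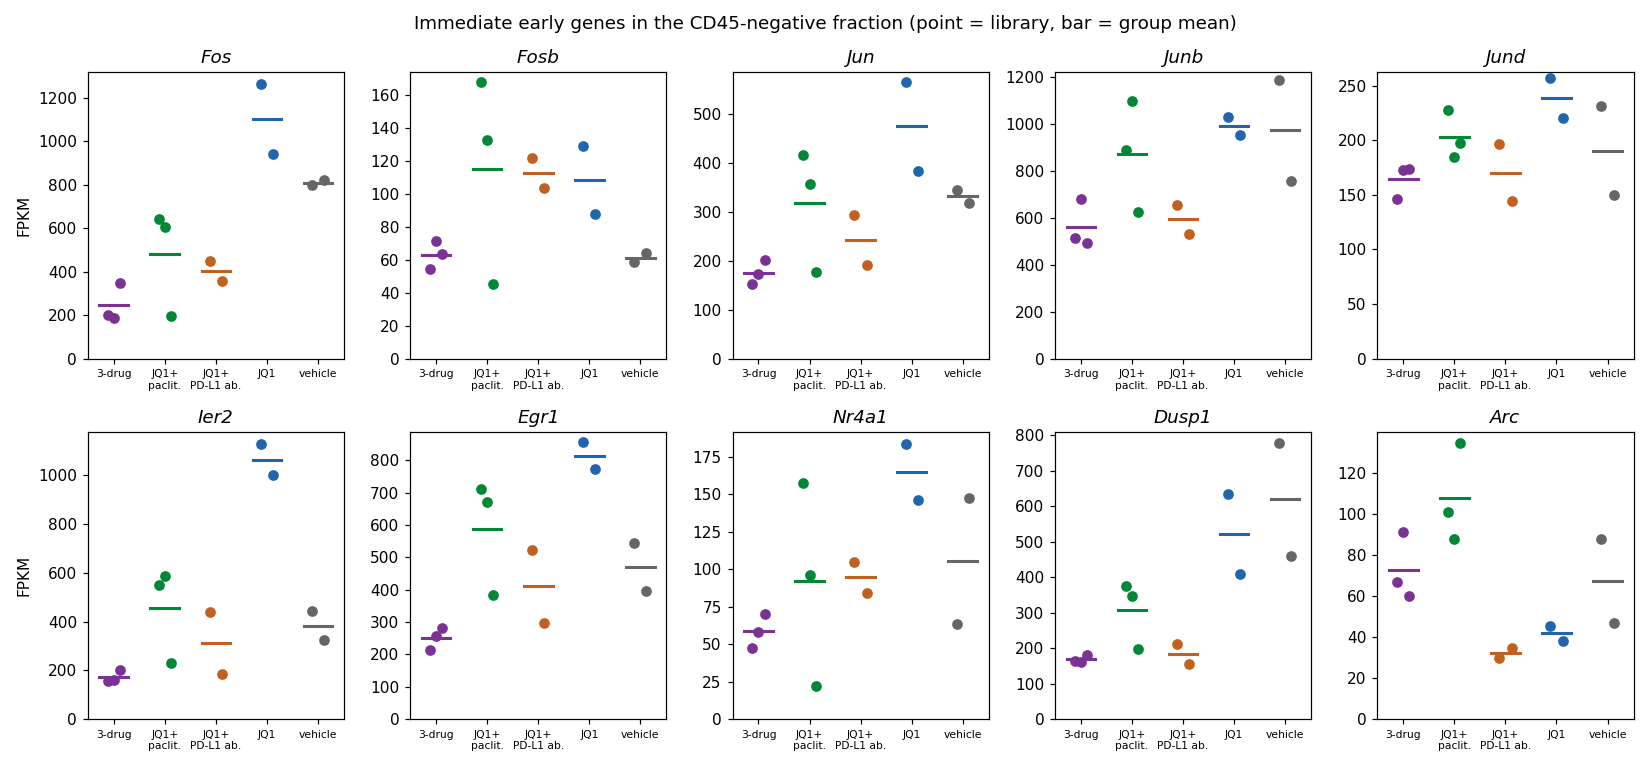
FPKM (vertical axis, linear, from 0, a separate scale per gene) of the 10 immediate early genes in the 12 CD45-negative libraries; each point is a library and each bar a group mean, with the 3-drug, JQ1 with paclitaxel, JQ1 with anti-PD-L1, JQ1 and vehicle groups from left to right. Ier2 lies at 157 to 201 FPKM in the 3-drug group and at 1000.4 and 1128 FPKM with JQ1. Arc has another order, with its highest group mean in JQ1 with paclitaxel (88.0 to 135 FPKM), which the 3-drug group overlaps (up to 91.5 FPKM).

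The first question was what adding anti-PD-L1 on top of JQ1 did, with or without paclitaxel. In CD45-negative cells, 6 of the 10 immediate early genes fell with the antibody (3-drug and JQ1 with anti-PD-L1, 5 libraries, against JQ1 with paclitaxel and JQ1, 5 libraries), and none rose. The 6 are Fos, Jun and Junb of AP-1, the transcription factor Egr1, Ier2, a nuclear protein that growth factors induce, and Dusp1. All 10 differences were negative, with a median of −0.77 on the scale of log2(FPKM + 1), against a median of 0.03 over all genes tested. By limma's test with Benjamini-Hochberg adjusted p under 0.05 over all 10780 genes, 25.0% of genes were called in this comparison and 10.9% were called lower and 14.0% higher. Calls were therefore frequent among all genes here.

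Fos, an AP-1 subunit that pairs with Jun proteins, had 199.8, 188 and 348 FPKM in the 3-drug group. It had 449 and 358 FPKM with JQ1 and anti-PD-L1, and 642, 606 and 196 FPKM with JQ1 and paclitaxel. With JQ1 alone it had 1266 and 942 FPKM, and with vehicle 799 and 820.1 FPKM. Both JQ1 libraries were the highest, and replicate 3 of JQ1 with paclitaxel was the only library without antibody inside the range of the antibody libraries. With the antibody Fos fell by 1.14 ± 0.30 on the log2 scale (SE, 5 against 5 libraries, adjusted p = 0.0143 by limma). Jun, the partner that binds DNA with Fos, had 153, 174 and 202 FPKM in the 3-drug group, 295 and 191 FPKM with JQ1 and anti-PD-L1, 417, 358 and 178 FPKM with JQ1 and paclitaxel, 566 and 384 FPKM with JQ1, and 345 and 319 FPKM with vehicle. The same library, replicate 3 of JQ1 with paclitaxel, again lay alone inside the antibody range, and Jun fell by 0.87 ± 0.22 (adjusted p = 0.0131 by limma). Junb, a Jun relative that often restrains Jun's activity, had 513, 679 and 491 FPKM in the 3-drug group, 655 and 531 FPKM with JQ1 and anti-PD-L1, 889, 1099 and 625 FPKM with JQ1 and paclitaxel, 1028 and 953 FPKM with JQ1, and 1186 and 757 FPKM with vehicle. Its 5 antibody libraries lay below 4 of the 5 libraries without the antibody, and it fell by 0.68 ± 0.18 (adjusted p = 0.0155 by limma).

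Egr1, a zinc finger factor downstream of MAP kinases, had 214, 257 and 283 FPKM in the 3-drug group, 522 and 298 FPKM with JQ1 and anti-PD-L1, 710.0, 669.9 and 383 FPKM with JQ1 and paclitaxel, 855 and 773 FPKM with JQ1, and 543 and 394 FPKM with vehicle. It fell by 1.11 ± 0.20 with the antibody (adjusted p = 0.00213 by limma), with the 3-drug libraries below all others. Ier2 showed the largest difference of the 10. It had 157, 162 and 201 FPKM in the 3-drug group, 441 and 187 FPKM with JQ1 and anti-PD-L1, 552, 588 and 232 FPKM with JQ1 and paclitaxel, 1128 and 1000.4 FPKM with JQ1, and 444 and 323 FPKM with vehicle. Both JQ1 libraries lay far above the other 10, and Ier2 fell by 1.59 ± 0.27 with the antibody (adjusted p = 0.00168 by limma). Dusp1, which removes phosphate from p38, JNK and ERK, had 165, 162 and 182 FPKM in the 3-drug group, 213 and 154 FPKM with JQ1 and anti-PD-L1, 374, 348 and 197 FPKM with JQ1 and paclitaxel, 636 and 410.1 FPKM with JQ1, and 778 and 461 FPKM with vehicle. All 5 antibody libraries lay at 213 FPKM or below, and Dusp1 fell by 1.14 ± 0.21 (adjusted p = 0.00225 by limma).

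The other 4 did not pass the test with the antibody. Jund, a Jun relative that many resting cells express, had 146, 172 and 174 FPKM in the 3-drug group, 196 and 145 FPKM with JQ1 and anti-PD-L1, 228, 184 and 198 FPKM with JQ1 and paclitaxel, 257 and 220.0 FPKM with JQ1, and 232 and 149 FPKM with vehicle. Its difference was −0.40 ± 0.14 (adjusted p = 0.0552 by limma) and its range over all libraries was the narrowest, with a highest value 1.78 times the lowest. Nr4a1, an orphan nuclear receptor also called Nur77 that antigen receptor signals induce in lymphocytes, had 47.4, 57.9 and 70.3 FPKM in the 3-drug group, 105 and 84.2 FPKM with JQ1 and anti-PD-L1, 157, 95.9 and 22.3 FPKM with JQ1 and paclitaxel, 183 and 146 FPKM with JQ1, and 63.2 and 147 FPKM with vehicle. It had the widest range of the 10, 8.23 times, and differed by −0.53 ± 0.42 (adjusted p = 0.370 by limma). Fosb, a Fos relative with the same bZIP architecture, had 54.5, 71.4 and 63.7 FPKM in the 3-drug group, 122 and 104 FPKM with JQ1 and anti-PD-L1, 168, 133 and 45.4 FPKM with JQ1 and paclitaxel, 129 and 87.5 FPKM with JQ1, and 58.5 and 64.1 FPKM with vehicle. The JQ1 with anti-PD-L1 values of Fosb lay within the range of the JQ1 values, and Fosb differed by −0.29 ± 0.28 (adjusted p = 0.470 by limma). Arc differed by −0.46 ± 0.18 (adjusted p = 0.0830 by limma). None of the 10 separated all 5 antibody libraries from all 5 others, where 7.05% of all genes did so in the lower and 6.35% in the higher direction.

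Single libraries bear on these calls. Ier2, Egr1 and Dusp1 stayed below an adjusted p of 0.05 in each of 18 alternative analyses. Fos, Jun and Junb did not pass when replicate 1 of JQ1 was left out (adjusted p = 0.0609, 0.0641 and 0.0514 by limma), when replicate 2 of JQ1 with anti-PD-L1 was left out (0.0647, 0.0755 and 0.0783), or when each mouse code gave 1 value (0.132, 0.0961 and 0.0985). Fos and Junb also did not pass with no filter on low values. Without replicate 3 of JQ1 with paclitaxel, 8 of the 10 passed, adding Fosb (−0.58, adjusted p = 0.0107) and Nr4a1 (−0.93, adjusted p = 0.0116). With relative depth in the model 8 passed as well, adding Jund (adjusted p = 0.0276) and Arc (adjusted p = 0.0348). The shares of all genes called in these alternative fits are not given here. Whether the gain to 8 was particular to these genes was not tested.

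Leukocyte and stress genes were measured beside this result. The sum of the 8 leukocyte genes in CD45-negative libraries was 329 to 557 FPKM in the 3-drug group, 547 to 776 FPKM with JQ1 and anti-PD-L1, 258 to 723 FPKM with JQ1 and paclitaxel, 309 to 430.4 FPKM with JQ1 and 254 to 308 FPKM with vehicle. With the antibody 1 of the 8 was called higher (Cd52), with a list median of 0.61, and 4 of the 5 antibody libraries lay above 4 of the 5 libraries without the antibody. Within JQ1 with paclitaxel, replicate 3, with the low immediate early genes, had 284 FPKM, and replicate 2 had 723 FPKM. Of 10 macrophage and monocyte genes tested 1 was called higher (Cd68), and their sum was 1195 to 1835 FPKM in the 3-drug group, 2080 to 2774 FPKM with JQ1 and anti-PD-L1, 1153 to 3323 FPKM with JQ1 and paclitaxel, 1059 to 1537 FPKM with JQ1 and 758 to 1150.3 FPKM with vehicle. None of these genes was at 0 in every library. Genes of other cell types were called as well, where 14.0% of all genes were called higher. Of 7 fibroblast genes Dcn and Pdgfra were called higher with the antibody, and of 4 tested neutrophil genes S100a8. So were Lck of 3 T cell genes and Krt18 of 4 epithelial genes tested. Fibroblast sums overlapped, at 1522 to 2223 FPKM (3-drug) and 2135 to 2228 FPKM (JQ1 with anti-PD-L1). Without the antibody they were 1106 to 2571 FPKM (JQ1 with paclitaxel) and 1568 to 2177 FPKM (JQ1). Sums of the 7 listed neutrophil genes, in the same group order, were 6.22 to 12.5, 54.01 to 59.99, 8.21 to 10.8 and 14.9 to 32.6 FPKM. Of 3 tested haemoglobin genes, which mark red blood cells, Hbb-b1 and Hbb-bt were called higher. The sum of the 4 listed erythroid genes was 0.730 to 3.60 FPKM in the 3-drug group and 20.1 to 67.4 FPKM with JQ1 and anti-PD-L1, against 0.646 to 2.19 FPKM with JQ1 and paclitaxel and 0.962 to 3.42 FPKM with JQ1. The part that any of these cells had in the immediate early genes was not tested.

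The wider immediate early class was described beside the 10 genes. Of 33 other immediate early and primary response genes tested in CD45-negative cells, 4 fell and 2 rose with the antibody, and their median was −0.12, where 10.9% of all genes were called lower and 14.0% higher. Cyr61, a secreted matrix protein and target of YAP and SRF, fell by 1.09 ± 0.14 (adjusted p = 0.000358 by limma), with 315 to 463 FPKM in the 5 libraries with the antibody against 698 to 968 FPKM in the 5 without it. Zfp36, which destabilises AU-rich messenger RNAs, fell by 0.97 ± 0.30 (adjusted p = 0.0343 by limma), and Btg2, an antiproliferative gene of the p53 and growth factor responses, fell by 0.93 ± 0.20 (adjusted p = 0.00520 by limma). Maff, a small Maf factor that pairs with other bZIP proteins, rose by 0.86 ± 0.18 (adjusted p = 0.00444 by limma). Among 26 tested genes of the MAP kinase, SRF and CREB pathways upstream, 4 rose and 4 fell with a median of 0.05. Dusp4, another MAP kinase phosphatase, rose by 1.13 ± 0.21 (adjusted p = 0.00242 by limma), Mapk9, which encodes JNK2, fell by 0.71 ± 0.12 (adjusted p = 0.00121 by limma), and Nras rose by 0.69 ± 0.13 (adjusted p = 0.00321 by limma). Of 11 tested partners and repressors of AP-1, Batf rose by 0.51 ± 0.17 (adjusted p = 0.0476 by limma) and Jdp2, a repressor of AP-1, fell by 0.57 ± 0.13 (adjusted p = 0.00884 by limma).

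Heat shock genes also respond when tissue is taken apart. Their 14 members summed to 2188 to 2648 FPKM in the 3-drug group, 2595 to 2613 FPKM with JQ1 and anti-PD-L1, 2547 to 2729 FPKM with JQ1 and paclitaxel, 3020 to 3200.0 FPKM with JQ1 and 3197 to 5784 FPKM with vehicle. With the antibody 1 of 14 fell and the median was −0.14. That gene was Dnajb1, a co-chaperone of Hsp70, which lay at 93.5 to 111 FPKM in the 3-drug group and 101 and 170.5 FPKM with JQ1 and anti-PD-L1, against 245 to 287 FPKM with JQ1 and paclitaxel and 249 and 258 FPKM with JQ1 (−1.13 ± 0.17, adjusted p = 0.000738 by limma). Replicate 3 of JQ1 with paclitaxel had a heat shock sum of 2645 FPKM, within its group's range. The part of dissociation in these differences was not tested.

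**Figure D2:**
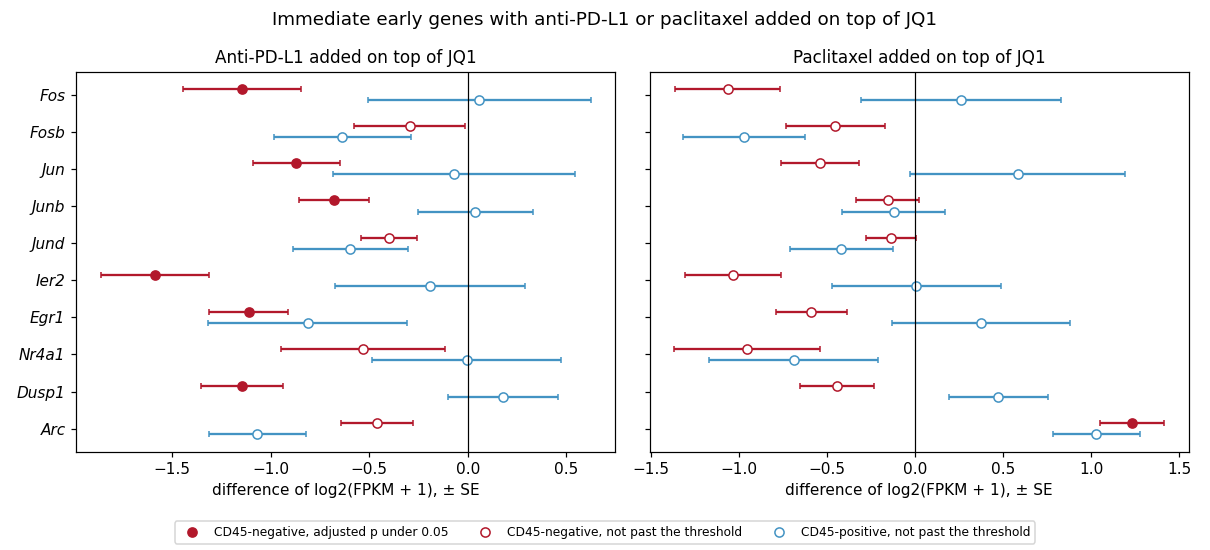
Difference of log2(FPKM + 1) with its standard error (horizontal axis, 0 marked by a line) of each immediate early gene when anti-PD-L1 (left panel) or paclitaxel (right panel) was added on top of JQ1; red circles are CD45-negative and blue circles CD45-positive cells, and filled circles have an adjusted p under 0.05. In the left panel all 10 red circles lie below 0 and 6 are filled; in the right panel the only filled circle is Arc, at 1.23.

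The second question was what adding paclitaxel on top of JQ1 did. In CD45-negative cells 1 of the 10 genes was called, Arc, which rose, and the other 9 had negative differences that did not pass the test (median of all 10, −0.50; median of all genes, −0.04). At an unadjusted p under 0.05 there were 6 of the 10 by limma, against 8 with anti-PD-L1 added. The shares of all genes at that unadjusted threshold are not given here, so these counts are not read further. The effects of the 2 additions were not tested against each other. In this comparison 3.56% of all genes were called with 2.19% called higher and 1.37% lower. Arc encodes a protein of the synaptic cytoskeleton that assembles into capsid-like particles and is best known as an activity marker of neurons. Arc had 66.8, 91.5 and 60.2 FPKM in the 3-drug group and 101, 88.0 and 135 FPKM with JQ1 and paclitaxel, against 29.8 and 34.8 FPKM with JQ1 and anti-PD-L1 and 45.3 and 38.2 FPKM with JQ1. All 6 libraries with paclitaxel exceeded all 4 treated libraries without it, as 1.57% of genes did in this direction and 1.46% in the other. Of the vehicle tumours 1, with 87.6 FPKM, lay inside the range with paclitaxel, and the other, with 47.0 FPKM, lay between both ranges. The difference was 1.23 ± 0.18 (adjusted p = 0.00854 by limma), and it did not pass without replicate 1 of JQ1 with anti-PD-L1 (1.18, adjusted p = 0.0621) or with 1 value per mouse code (adjusted p = 0.0887).

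Next to Arc, Ier2 and Fos came nearest to the threshold with paclitaxel, in the lower direction. Ier2 differed by −1.03 ± 0.27 (adjusted p = 0.0558 by limma) and passed without replicate 2 of JQ1 with paclitaxel (adjusted p = 0.0367) or without replicate 2 of JQ1 with anti-PD-L1 (0.0312). Fos differed by −1.06 ± 0.30 (adjusted p = 0.0691 by limma) and passed when replicate 1 (0.0472) or 2 (0.0443) of JQ1 with paclitaxel or replicate 3 of the 3-drug group (0.0468) was left out. Among the other 33 immediate early genes 2 rose, Fosl1, the Fos relative Fra-1, by 0.78 ± 0.12 (adjusted p = 0.00978 by limma) and Zfp36l1, a relative of Zfp36, by 0.57 ± 0.13 (adjusted p = 0.0384 by limma). Of the 11 AP-1 partners and repressors 1 rose (Mafk) and 1 fell (Jdp2). Upstream, Dusp4 rose by 0.96 ± 0.21 (adjusted p = 0.0278 by limma), the only call among 26 genes. Of the 14 heat shock genes and the 8 leukocyte genes 0 were called, with medians of −0.12 and −0.18. Among other cell types the fibroblast genes Dcn and Pdgfra were called higher with paclitaxel, while the median of the 7 fibroblast genes was −0.35. Called lower were S100a8 and S100a9 of neutrophils, Mrc1 of macrophages (list median −0.09), and Hbb-b1 and Hbb-bt of red blood cells. Their part in the Arc result was not tested.

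Whether the antibody and paclitaxel departed from adding up was asked by their interaction. None of the 10 passed (limma, adjusted p of 0.781 or more; 0 had an unadjusted p under 0.05), where 0.00928% of all genes did. The interaction of Fos was 0.60 ± 0.59, of Ier2 0.59 ± 0.55 and of Dusp1 0.69 ± 0.42, values near 1 to 2 standard errors.

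The 4 treated groups were each compared with vehicle, and these 4 comparisons share the same 2 vehicle libraries. These 2 libraries share 1 mouse code, so 1 animal may stand for vehicle. No call of the 10 genes against vehicle held with 1 value per mouse code. With no filter on low values, 0 of the 10 genes were called by limma in each of them. In the 3-drug group Dusp1 fell by 1.82 ± 0.29 on the log2 scale (3 against 2 libraries, adjusted p = 0.0223 by limma), where 1.63% of all genes were called, 0.584% higher and 1.05% lower. Fos differed by −1.78 ± 0.42 (adjusted p = 0.0553 by limma) and passed in 4 of the fits that left out a library, with adjusted p of 0.00565 to 0.0493, 3 of them without a library of JQ1 with paclitaxel, which enters only the estimate of spread. For 6 of the 10 genes (Fos, Jun, Junb, Egr1, Ier2 and Dusp1) all 3-drug libraries lay below both vehicle libraries, where 24.2% of all genes did so. The Dusp1 call did not hold without replicate 1 of vehicle (−1.44, adjusted p = 0.176) or without replicate 2 of the 3-drug group (−1.78, adjusted p = 0.0870).

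In JQ1 with paclitaxel Dusp1 was again the 1 gene called, falling by 1.02 ± 0.29 (adjusted p = 0.0322 by limma), where 17.6% of all genes were called, 5.29% higher and 12.3% lower. It did not pass without replicate 1 of vehicle (−0.64, adjusted p = 0.272), without replicate 3 of JQ1 with paclitaxel (−0.73, adjusted p = 0.0789) or after median ratio scaling (−0.93, adjusted p = 0.0600). Fos and Dusp1 lay below both vehicle libraries in all 3 tumours (29.2% of genes did so) and Arc above them (19.4%). Arc differed by 0.72 ± 0.26 (adjusted p = 0.0760 by limma) and passed without replicate 1 of vehicle (0.0253) or with relative depth in the model (0.0367). Without its replicate 3 this group showed Fosb above vehicle by 1.27 (adjusted p = 0.00275), against 0.71 ± 0.40 (adjusted p = 0.242) with it.

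None of the 10 was called in JQ1 with anti-PD-L1 against vehicle by limma, where 0.25% of all genes were called (0.0649% higher, 0.186% lower). An unadjusted p under 0.05 was reached by 4, and the share of all genes at that threshold is not given here. Dusp1 came nearest (−1.72 ± 0.32, adjusted p = 0.0521), and it passed in 5 of the fits that left out a library of JQ1 or of JQ1 with paclitaxel, with adjusted p of 0.0170 to 0.0484. Without overlap, Fos, Jun, Junb, Dusp1 and Arc lay lower (27.6% of genes did) and Fosb lay higher (22.2%).

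In JQ1 alone against vehicle Ier2 rose by 1.49 ± 0.42 (2 against 2 libraries, adjusted p = 0.0344 by limma), the 1 gene of the 10 called where 14.8% of all genes were, 5.09% higher and 9.68% lower. Fos, Fosb, Jun, Egr1 and Ier2 were higher than vehicle in both JQ1 libraries (27.0% of genes) and Arc lower (33.0%). The 2 JQ1 libraries share 1 mouse code and the 2 vehicle libraries another, so the test may set 1 animal against another. The call of Ier2 did not hold with 1 value per mouse code, and it rests on every library of the comparison. Its adjusted p was 0.172 without replicate 1 of JQ1, 0.0801 without replicate 2 of JQ1, 0.0741 without replicate 1 of vehicle and 0.191 without replicate 2 of vehicle. With relative depth in the model, where JQ1 and vehicle differed most, it was 0.245 (1.26). Among the other 33 genes of the class, Btg1, an antiproliferative gene, rose by 0.54 ± 0.17 (adjusted p = 0.0481 by limma), while Tnfaip3, an inhibitor of NF-κB signalling, fell by 1.33 ± 0.21 (adjusted p = 0.00242 by limma) and Fosl1 by 0.85 ± 0.19 (adjusted p = 0.0112 by limma).

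Taking the 4 treated groups as a mean against vehicle, Dusp1 was the 1 gene called of the 10 (−1.20 ± 0.25, 10 against 2 libraries, adjusted p = 0.0152 by limma), where 7.37% of all genes were called, 1.75% higher and 5.61% lower. None of the 10 had all 10 treated libraries on 1 side of both vehicle libraries, as 3.43% of all genes had above and 8.33% below. It did not pass without replicate 1 of vehicle (−0.82, adjusted p = 0.216) or replicate 2 of vehicle (−1.57, adjusted p = 0.0519). Hspb1, a small heat shock protein, fell in each of the 4 comparisons with vehicle, by 2.05 ± 0.25 in the 3-drug group (adjusted p = 0.00700 by limma), 2.18 ± 0.25 with JQ1 and paclitaxel (0.000261), 1.70 ± 0.28 with JQ1 and anti-PD-L1 (0.0237) and 1.28 ± 0.28 with JQ1 (0.0103). Its level was at most 746 FPKM in a treated tumour, against 1086 and 2113 FPKM in the vehicle tumours. The sum of the 14 heat shock genes was likewise lower in 9 of the 10 treated libraries than in both vehicle libraries. Red blood cell genes moved with vehicle too. All 3 tested haemoglobin genes were called lower in the treated mean, with a median of −4.46, and the 4 listed erythroid genes summed to at most 67.4 FPKM in a treated library, against 109.8 and 262 FPKM with vehicle. The part of the heat shock genes and of red blood cells in the Dusp1 result was not tested.

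In CD45-positive cells the same 10 genes gave no call. By limma, 0 of the 10 had an adjusted p under 0.05 in any of the 8 comparisons. Of all genes, 0.832% were called with anti-PD-L1 added, 0.0387% with paclitaxel added, 0.0% for the interaction, 0.135% in the 3-drug group against vehicle, 4.84% in JQ1 with paclitaxel (1.58% higher, 3.26% lower), 0.029% in JQ1 with anti-PD-L1, 1.04% in JQ1 and 0.822% in the mean of the treated groups. At an unadjusted p under 0.05 there were 1, 2, 1, 1, 1, 1, 0 and 0 of the 10 in these comparisons. The shares of all genes at that unadjusted threshold are not given here. The spread between libraries of a group was larger here. The within-group SD of the 10 genes was 0.385 to 1.14 log2 units, against 0.241 to 0.854 in the CD45-negative fraction. The median over all genes was also larger, at 0.279 in the CD45-positive against 0.220 in the CD45-negative fraction.

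**Figure D3:**
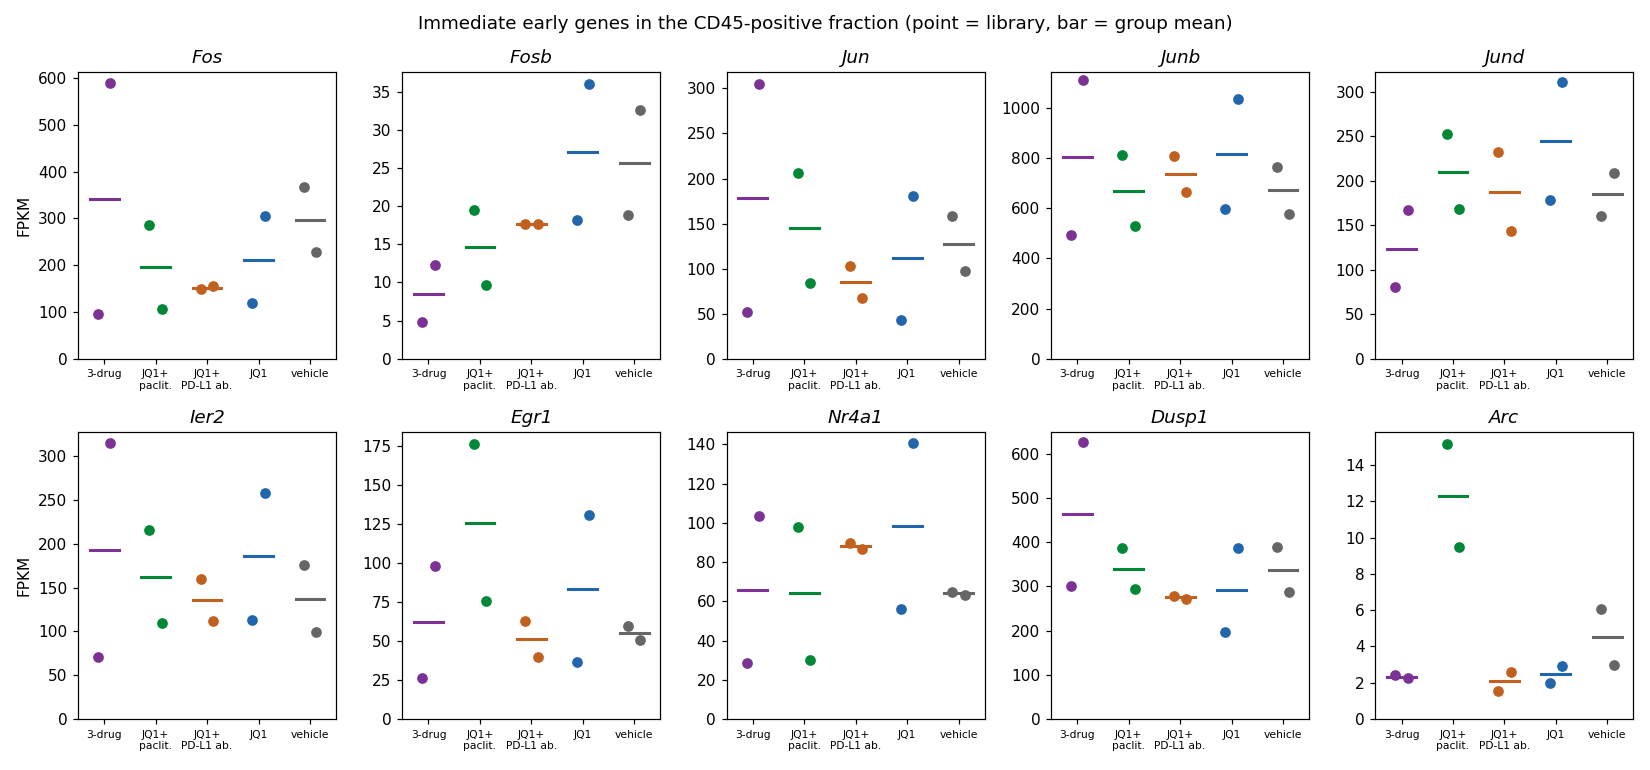
FPKM (vertical axis, linear, from 0, a separate scale per gene) of the 10 immediate early genes in the 10 CD45-positive libraries; each point is a library and each bar a group mean, with the groups from left to right as for CD45-negative cells. The 2 libraries of the 3-drug group lie far apart, Fos at 95.7 and 589 FPKM, while the 2 of JQ1 with anti-PD-L1 lie together at 149 and 155 FPKM.

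Fos had 95.7 and 589 FPKM in the 3-drug group, 286 and 107 FPKM with JQ1 and paclitaxel, 149 and 155 FPKM with JQ1 and anti-PD-L1, 119 and 305 FPKM with JQ1, and 367 and 228 FPKM with vehicle. Its lowest and highest values thus came from tumours of the same treatment. Jun had 52.4 and 305 FPKM in the 3-drug group, 206 and 84.3 FPKM with JQ1 and paclitaxel, 103 and 68.0 FPKM with JQ1 and anti-PD-L1, 43.2 and 181 FPKM with JQ1, and 158 and 97.0 FPKM with vehicle. Ier2 had 71.2 and 315 FPKM in the 3-drug group, 215 and 109 FPKM with JQ1 and paclitaxel, 160.2 and 111 FPKM with JQ1 and anti-PD-L1, 113 and 258 FPKM with JQ1, and 176 and 99.1 FPKM with vehicle. Jun and Ier2 repeated the order of libraries seen for Fos within the 3-drug, JQ1 and JQ1 with paclitaxel groups, and JQ1 with anti-PD-L1 was the treated group with the closest pair of libraries for all 3 genes.

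Junb had the highest mean of the 10 in this fraction too, with 493 and 1112 FPKM in the 3-drug group, 810.1 and 529.9 FPKM with JQ1 and paclitaxel, 806 and 665 FPKM with JQ1 and anti-PD-L1, 595 and 1034 FPKM with JQ1, and 765 and 576 FPKM with vehicle. Dusp1 had 301 and 628 FPKM in the 3-drug group, 387 and 294 FPKM with JQ1 and paclitaxel, 278 and 272 FPKM with JQ1 and anti-PD-L1, 197 and 388 FPKM with JQ1, and 389 and 288 FPKM with vehicle. Dusp1, 1 of the 6 genes that fell with anti-PD-L1 in CD45-negative cells, differed here by 0.18 ± 0.28 with anti-PD-L1 (adjusted p = 0.783 by limma) and by 0.38 ± 0.40 in the 3-drug group against vehicle (0.790), a difference between fractions that was not tested. Jund had 80.6 and 167 FPKM in the 3-drug group, 252 and 168 FPKM with JQ1 and paclitaxel, 232 and 143 FPKM with JQ1 and anti-PD-L1, 179 and 311 FPKM with JQ1, and 161 and 209 FPKM with vehicle, so its lowest library was again replicate 1 of the 3-drug group.

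Egr1 had 26.1 and 97.8 FPKM in the 3-drug group, 176 and 75.2 FPKM with JQ1 and paclitaxel, 63.0 and 39.9 FPKM with JQ1 and anti-PD-L1, 36.5 and 130.4 FPKM with JQ1, and 59.5 and 50.6 FPKM with vehicle. Both JQ1 with paclitaxel libraries lay above both vehicle libraries for Egr1 and Arc, where 18.9% of genes did. Nr4a1 had 28.6 and 103 FPKM in the 3-drug group, 97.8 and 30.2 FPKM with JQ1 and paclitaxel, 89.6 and 86.7 FPKM with JQ1 and anti-PD-L1, 56.1 and 141 FPKM with JQ1, and 65.0 and 63.1 FPKM with vehicle. JQ1 with anti-PD-L1 lay above vehicle for Nr4a1 (14.8% of genes did) and below it for Fos, Fosb, Dusp1 and Arc (27.1%).

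Fosb and Arc were the 2 scarcest of the 10 in CD45-positive cells. Fosb had 4.79 and 12.2 FPKM in the 3-drug group, 19.5 and 9.72 FPKM with JQ1 and paclitaxel, 17.6 and 17.7 FPKM with JQ1 and anti-PD-L1, 18.2 and 36.0 FPKM with JQ1, and 18.8 and 32.6 FPKM with vehicle. Its difference in the 3-drug group against vehicle was −1.56 ± 0.49 (adjusted p = 0.427 by limma), with both libraries below both vehicle ones for Fosb and Arc (20.5% of genes). Arc had 2.42 and 2.25 FPKM in the 3-drug group, 15.1 and 9.47 FPKM with JQ1 and paclitaxel, 1.57 and 2.61 FPKM with JQ1 and anti-PD-L1, 1.97 and 2.95 FPKM with JQ1, and 6.05 and 2.99 FPKM with vehicle. JQ1 with paclitaxel had the 2 highest Arc values, at +1.29 ± 0.35 against vehicle (adjusted p = 0.0719 by limma), and it was the group with the highest mean Arc level in both fractions. Anti-PD-L1 on top of JQ1 gave an Arc difference of −1.07 ± 0.25 (adjusted p = 0.0839 by limma). JQ1 lay below vehicle without overlap for Arc alone (26.7% of genes) and above it for 0 of the 10 (22.4% of genes).

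RNA of endothelial cells, fibroblasts and pericytes was also highest in JQ1 with paclitaxel among the CD45-positive libraries, whereas the 4 erythroid genes were highest with vehicle (1.28 and 9.51 FPKM with JQ1 and paclitaxel, against 38.1 and 17.2 FPKM with vehicle). The 6 epithelial genes summed to 91.1 and 30.6 FPKM with JQ1 and paclitaxel, against 36.2 and 30.2 FPKM with vehicle. Endothelial genes summed to 11.2 and 14.8 FPKM in the 3-drug group, 37.0 and 45.6 FPKM with JQ1 and paclitaxel, 6.09 and 7.58 FPKM with JQ1 and anti-PD-L1, 17.9 and 18.7 FPKM with JQ1, and 3.03 and 4.93 FPKM with vehicle. All 6 tested of 7 were called higher in JQ1 with paclitaxel against vehicle (median 1.95). The 7 fibroblast genes summed to 42.3 and 47.2 FPKM in the 3-drug group, 113 and 202 FPKM with JQ1 and paclitaxel, 35.5 and 89.0 FPKM with JQ1 and anti-PD-L1, 28.5 and 88.6 FPKM with JQ1, and 62.4 and 95.0 FPKM with vehicle, and 1 of them was called higher in JQ1 with paclitaxel (Lum). Of 4 pericyte genes tested 3 were called higher. None of these genes was at 0 in every library. The part of such cells in the Arc and Egr1 values was not tested.

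Outside the 10, the CD45-positive fraction had few calls in the class. Nr4a2, the closest relative of Nr4a1, rose by 1.42 ± 0.26 in the treated mean over vehicle (adjusted p = 0.0477 by limma), and Rhob, an endosomal small GTPase of the immediate early class, fell by 1.01 ± 0.16 with anti-PD-L1 (adjusted p = 0.0433 by limma). These were the only calls among 32 tested genes in the 8 comparisons. The heat shock gene Hspd1, a mitochondrial chaperonin, fell by 0.84 ± 0.20 in JQ1 with paclitaxel against vehicle (adjusted p = 0.0498 by limma). No gene of the 25 tested upstream MAP kinase, SRF and CREB genes and none of 12 tested AP-1 partners was called in this fraction.

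Both fractions were available for 10 tumours, which allowed each gene to be set against itself in the same tumour. The tables may have been normalised separately, so no test was made and only the size of the ratios is described. Arc was higher in the CD45-negative fraction in 10 of 10 tumours, with a median ratio of 15.1 (6.68 to 40.6), Egr1 in 10 of 10 with a median ratio of 7.63 (2.63 to 23.4) and Fosb in 10 of 10 with a median ratio of 5.85 (1.97 to 11.4). Ier2, Jun and Fos were higher there in 9 of 10 tumours, with median ratios between 2.28 (Fos) and 2.54 (Ier2). The exception was for each the same tumour of the 3-drug group, with ratios of 0.514, 0.569 and 0.320. Nr4a1, Junb and Jund were near equal, with medians of 1.10, 1.07 and 1.02 and 6 of 10 tumours higher in CD45-negative cells, and Dusp1 had a median of 0.866, with 4 of 10.

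**Figure D4:**
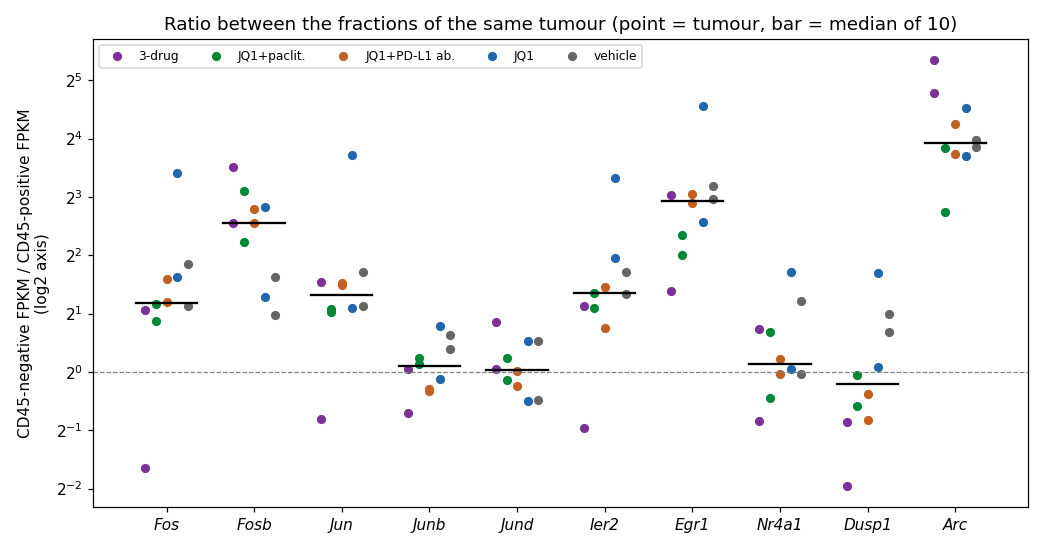
Ratio of CD45-negative to CD45-positive FPKM in the same tumour (vertical axis, log2 scale, dashed line at equal levels) for each immediate early gene; points are the 10 tumours, coloured by treatment, and bars the medians. Arc, Egr1 and Fosb lie above the line in all 10 tumours, and Junb, Jund, Nr4a1 and Dusp1 lie on both sides of it.

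Levels in the fractions of the same tumour were also set against each other. Across the 10 tumours Pearson's r between log2 levels in the fractions was above 0 for 9 of the 10 genes. It was 0.74 for Arc, 0.62 for Nr4a1, 0.53 for Jund, 0.43 for Egr1, 0.40 for Fosb, 0.35 for Junb, 0.28 for Ier2, 0.14 for Fos, 0.03 for Jun and −0.18 for Dusp1. These are descriptions over tumours of 5 treatments, several of them pairs that share a mouse code. The tumour whose CD45-positive library was the highest for Fos (589 FPKM, 3-drug replicate 2) had the lowest CD45-negative Fos level of all (188 FPKM).

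Within a fraction the levels of most of these genes were correlated from library to library. The 45 pairs had a median r of 0.70 across the 12 CD45-negative libraries, with 39 pairs above 0, and of 0.63 across the 10 CD45-positive libraries, with 41 above 0. After each group's mean was taken out, the median was 0.68 (38 pairs above 0) and 0.89 (44 pairs above 0). Every CD45-positive group holds 2 libraries, whose deviations mirror each other, so the value of 0.89 rests on only 1 difference per group. No value over all pairs of genes was computed to set beside these. Arc had a median r with the other genes of −0.20 in CD45-negative and 0.14 in CD45-positive libraries, and of −0.33 and 0.40 after group means were taken out. Libraries share depth and preparation, so these values describe the libraries only.

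**Figure D5:**
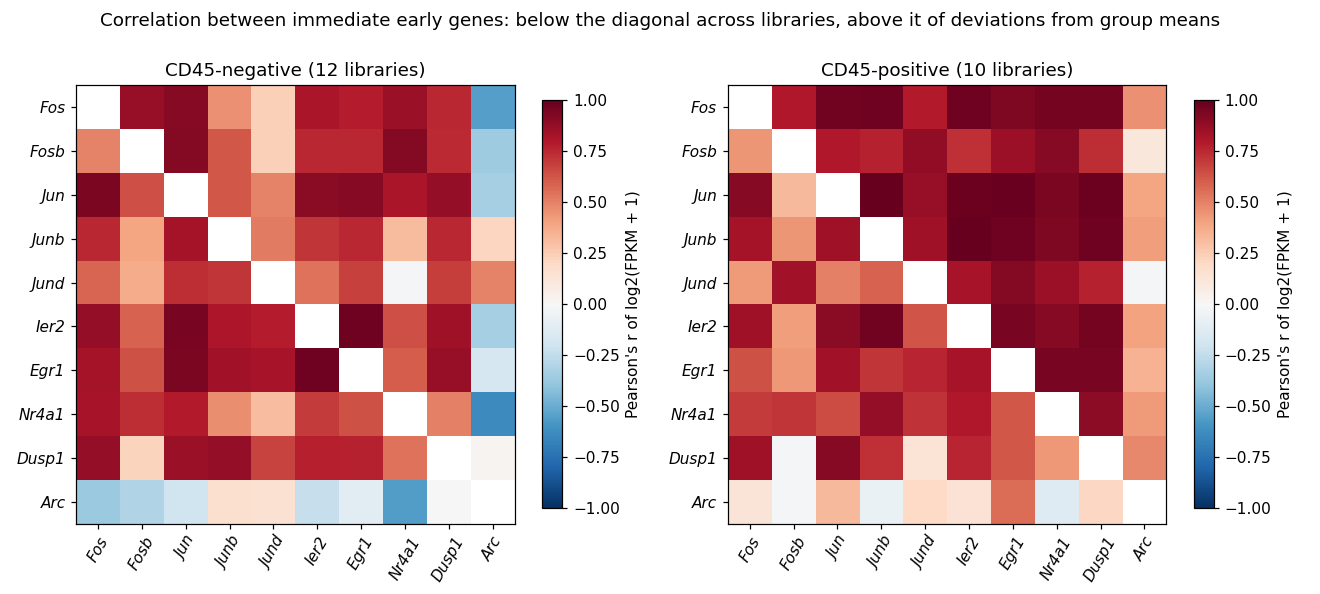
Pearson's r of log2(FPKM + 1) between each pair of immediate early genes (colour scale from −1 to 1), below the diagonal across libraries and above it after removing group means, for 12 CD45-negative (left) and 10 CD45-positive libraries (right). Below the diagonal most squares from Fos to Dusp1 are red and most of the Arc row is pale or blue. Exceptions in the right panel include Fosb with Dusp1 (−0.01) and Arc with Egr1 (0.56). The median r is 0.70 and 0.63 over all pairs and −0.20 and 0.14 for Arc.

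The genes most like the mean of the 10 standardised levels were looked for among all genes of a fraction. In CD45-negative cells the 5 with the highest Pearson's r over 12 libraries were Btg2 (0.95), Msh6 (0.95), Pias3 (0.94), Lrch4 (0.94) and Zfyve21 (0.93). Of these Btg2 belongs to the listed immediate early genes, with 11.3 to 32.2 FPKM. In CD45-positive cells, over 10 libraries, they were Noa1 (0.95), Pex6 (0.94), B3galnt2 (0.93), Wdfy2 (0.93) and Tesk2 (0.93), all with a median of at most 6.32 FPKM and none in the listed class. The 33 other immediate early genes had a median r of 0.11 in CD45-negative cells, against −0.02 over all 10770 genes ranked, and 32 had a median of 0.44 in CD45-positive cells, against 0.07. The 14 heat shock genes had medians of 0.16 in CD45-negative and 0.13 in CD45-positive cells.

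Several of these genes overlap a neighbour on the opposite strand in the newer GENCODE M21 annotation, and whether reads were counted by strand is not given in the sources used here. Exons of Junb overlap those of Prdx2 and exons of Dusp1 those of Ergic1, so reads of each pair may be split between them. With anti-PD-L1 added in CD45-negative cells Prdx2 differed by −0.01 ± 0.12 and Ergic1 by 0.10 ± 0.09, and neither was called (adjusted p = 0.952 and 0.464 by limma). In CD45-negative JQ1 with paclitaxel against vehicle Prdx2 was called lower (−0.54 ± 0.17, adjusted p = 0.0478 by limma), where 12.3% of all genes were. Ergic1 differed there by −0.15 ± 0.13. In the other comparisons of both fractions neither gene was called. The part of Prdx2 reads in the Junb values was not tested. Jun and Jund overlap antisense transcripts, Junos and Gm11175, whose values were not used here.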

How the data were processed

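Libraries were made with a low-input SMARTer kit from less than 10 ng of RNA, per the labels' protocols, and STAR 2.5.1b and the build mm9 are named in the submitters' processing notes. Neither label nor header says which tool made the gene values. The 2 deposited tables, 1 per fraction, hold FPKM made by the authors. That unit was inferred from the values, since the label speaks of counts while columns hold decimals and sum to 296682 to 370513. No count test was run.

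A gene was kept where 2 or more libraries of the fraction reached 1 FPKM, and log2(FPKM + 1) was fitted per fraction with limma 3.58.1 (R 4.3.3) as 1 model of the 5 groups with a mean-variance trend, two-sided, Benjamini-Hochberg adjusted over all genes of a comparison at 0.05. A fold change on this scale understates that of scarce genes. Relative depth was read from the steps between low values. Python 3.11.15 and matplotlib 3.10.9 drew the figures.

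The genes and lists were chosen with earlier results of these data known. All 10 genes are reported in each comparison; of each other list up to 3 called genes of largest change per comparison are named, otherwise counts and medians; likeness is given for 5 genes per fraction. Promoter sequences are RefSeq's on GRCm38.p6, another build than mm9, so no coordinates were joined. Precision comes from the spread between libraries. Alternatives were another pseudocount (0.1), no filter, median ratio scaling, depth as a covariate, 1 value per mouse code (as read from the sample titles), no trend and leaving out each library.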

Additional observations from a re-analysis of the deposited data

Results flagged for a closer look

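Fosb differed in opposite directions in the fractions of the same tumours, without overlap of the compared groups. Opposite signs alone were also seen elsewhere, as for Dusp1 with anti-PD-L1 added. In JQ1 with anti-PD-L1 against vehicle, Fosb was higher in CD45-negative cells (122 and 104 FPKM with JQ1 and anti-PD-L1, against 58.5 and 64.1 FPKM with vehicle; 0.87 on the log2 scale) and lower in CD45-positive cells (17.6 and 17.7 FPKM with JQ1 and anti-PD-L1, against 18.8 and 32.6 FPKM with vehicle; −0.47), without overlap of the groups in either. Neither difference passed limma's test (adjusted p = 0.387 in CD45-negative and 0.916 in CD45-positive cells), and the difference between the fractions was not tested. Of all genes, 22.2% lay higher without overlap in CD45-negative cells and 27.1% lower in CD45-positive cells. Groups of 2 or 3 libraries are too small for a test for outlying values.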

How the results depend on the processing

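No paired analysis was possible because the labels give no replicate numbers that treatment groups could share, and each mouse code, as read from the titles, falls within 1 group. Both fractions of a tumour share a code but lie in separate tables, which were not tested against each other. Of the 10 genes, 1 was called in CD45-negative cells in each of JQ1, JQ1 with paclitaxel, the 3-drug group and the treated mean against vehicle; with no filter on low values these became 0, 0, 0 and 0, and with 1 value per mouse code 0, 0, 0 and 0. With depth as a covariate JQ1 gave 0 and JQ1 with paclitaxel 2, and after median ratio scaling JQ1 with paclitaxel gave 0. With 1 value per mouse code, anti-PD-L1 added gave 3 in place of 6 and paclitaxel added 0 in place of 1. Leaving out a library gave 0 to 3 for JQ1, 0 to 1 for JQ1 with anti-PD-L1 (0 with all libraries), 1 for JQ1 with paclitaxel, where the gene was Dusp1 except without its replicate 3 (Fosb) and without replicate 1 of vehicle (Arc), 0 to 3 for the 3-drug group, 0 to 2 for the treated mean, 3 to 8 for anti-PD-L1 added and 0 to 3 for paclitaxel added. The cause was not tested, except that 1 value per mouse code leaves fewer samples. A lone library left in a group was taken to vary like the other groups. These counts stand without the shares of all genes called in the same fits, so their changes are not read as particular to the 10 genes. All counts in CD45-positive cells and for the CD45-negative interaction were 0 under every alternative run. Of 2720 single-gene values, 33 lost a call, 31 gained one and 0 reversed with a call; 191 uncalled values changed sign. Median ratio scaling moved the median of all genes by over 0.1 only in the CD45-positive interaction (0.16 before, 0.02 after), and in the 3-drug group against vehicle it changed the CD45-negative calls over all genes to 74 higher and 55 lower, in place of 63 and 113. It likewise gave 768 and 1115 in place of 570 and 1323 for JQ1 with paclitaxel, 273 and 490 in place of 189 and 605 for the treated mean and, in CD45-positive cells, 184 and 202 in place of 163 and 337 for JQ1 with paclitaxel and 16 and 25 in place of 50 and 36 with anti-PD-L1 added. Unknown absolute depth limits what can be said of the scarcest values, Arc and Fosb in CD45-positive cells.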
